A study of Mus musculus with 4 samples.

Results

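The enzymes described here are those that modify foreign compounds, alcohols and aldehydes. They were taken as every gene on the array whose current symbol begins with Cyp1 to Cyp4 plus a letter, with Gsta, Gstk, Gstm, Gsto, Gstp or Gstt, with Ugt1 or Ugt2, with Sult, with Adh plus a digit, or with Aldh. The symbol alone decided membership, but the families were chosen with earlier results of these data known. This gave 108 of the 16390 genes with a named probe: 3 Cyp1, 28 Cyp2, 5 Cyp3, 10 Cyp4, 4 Adh, 20 Aldh, 18 Gst, 9 Ugt and 11 Sult genes. Where a gene had several probes, the brightest was used.

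Cytochromes P450 of the Cyp1 to Cyp4 families insert oxygen into drugs, pollutants, steroids and fatty acids, which is the first phase of their handling. Glutathione S-transferases (Gst), UDP-glucuronosyltransferases (Ugt) and sulfotransferases (Sult) then join glutathione, glucuronic acid or sulfate to the product, which makes it easier to excrete. Alcohol dehydrogenases (Adh) turn alcohols, including ethanol and retinol, into aldehydes, and aldehyde dehydrogenases (Aldh) turn these into acids. In the gut, absorptive enterocytes are known as a main site of these enzymes. Tuft cells are rare chemosensory cells of the same epithelium, and Dclk1 is a marker of them.

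RNA was hybridised, 1 sample an array, to 4 single-colour arrays labelled with Cy5. All mice were male and carried Dclk1CreERT2/+, an allele that places an inducible Cre recombinase at the Dclk1 gene, so no array comes from a mouse without it. The tumor samples came from mice that also carried ApcMin/+, a mutation of the tumor suppressor Apc that gives rise to intestinal tumors. The Dclk1- tumor cells came from 1 mouse aged 17 weeks. The Dclk1+ tumor cells were pooled from 7 mice aged over 16 weeks and were sorted on GFP. The Dclk1- normal cells came from 1 mouse aged 26 weeks. The Dclk1+ normal cells were pooled from 2 mice of the same age. The gates for the other 3 samples and the segment of intestine were not given in the sources used here. Each group is a single array, so no difference below has a replicate check and none carries a test. Genotype, tissue, age and array cannot be told apart, and neither can fewer cells of a type and less RNA per cell.

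Levels are the authors' normalised intensities, a linear scale on which the median listed probe of each array is set to 25 and on which the dimmest probes are not listed. They compare 1 gene across arrays and not 1 gene with another. Differences are log2 differences of spot intensities that were background-corrected with an offset of 50 and quantile-normalised, so a difference of 1 is 2-fold. The offset compresses the differences of dim genes. A probe was above background where its spot exceeded the mean of the 2736 blank spots by 2 SD, and some listed probes did not reach this.

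The labels were checked against marker genes. The level of Dclk1 was 180 in Dclk1- normal, 736 in Dclk1+ normal, 9.49 in Dclk1- tumor and 61.8 in Dclk1+ tumor cells. It was thus higher in the Dclk1+ sample of each tissue, although the Dclk1- normal sample exceeded the Dclk1+ tumor sample. Its log2 difference between Dclk1+ and Dclk1- cells was 1.41 in normal epithelium and 0.69 in tumor, the latter below 2-fold. All 9 measured tuft cell markers were at least 2-fold higher in Dclk1+ normal than in Dclk1- normal cells, and 7 of 9 were in tumor. Dclk1 and Il25 (0.97) were not in tumor. Among 10 measured enterocyte markers, the Dclk1+ normal sample was 4-fold or more below the Dclk1- normal sample for 7, with Krt20 at -6.03 and Fabp2 at -4.20 on the log2 scale. Fabp1, a fatty acid binding protein on the same list, was 1.60 higher. The albumin gene Alb, a defining marker of hepatocytes, was at 3.11 in Dclk1- normal, 49.2 in Dclk1- tumor and 15.6 in Dclk1+ tumor cells and was not listed in Dclk1+ normal cells.

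Of the 108 enzyme genes, 96 were above background on at least 1 array and 55 on all 4. The Dclk1- normal array showed 85 of 108 (78.7%, against 71.4% of all genes). The Dclk1+ normal array showed 75 (69.4%, against 73.7%), the Dclk1- tumor array 72 (66.7%, against 66.6%) and the Dclk1+ tumor array 70 (64.8%, against 70.6%). The 12 genes above background on none were Aldh1a3, Aldh1l2, Aldh3a1, Aldh8a1, Cyp2c38, Cyp2j13, Cyp2r1, Cyp4a14, Cyp4f39, Gstm4, Sult4a1 and Ugt2a1. All 5 Cyp3 genes were above background in Dclk1- normal cells and 3 in each other sample. Of the 9 Ugt genes, 7 were above background in Dclk1- normal, 6 in Dclk1- tumor and 4 in each Dclk1+ sample.

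For 54 of the 96 detected enzyme genes (56.2%) the Dclk1- normal array was the highest of the 4, against 26.4% of all 13467 detected genes. The Dclk1+ normal array was highest for 19 (19.8%, against 32.8%). The tumor arrays were highest less often, at 13 genes in Dclk1- cells (13.5%, against 20.6%) and 10 in Dclk1+ cells (10.4%, against 20.1%).

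**Figure D1:**
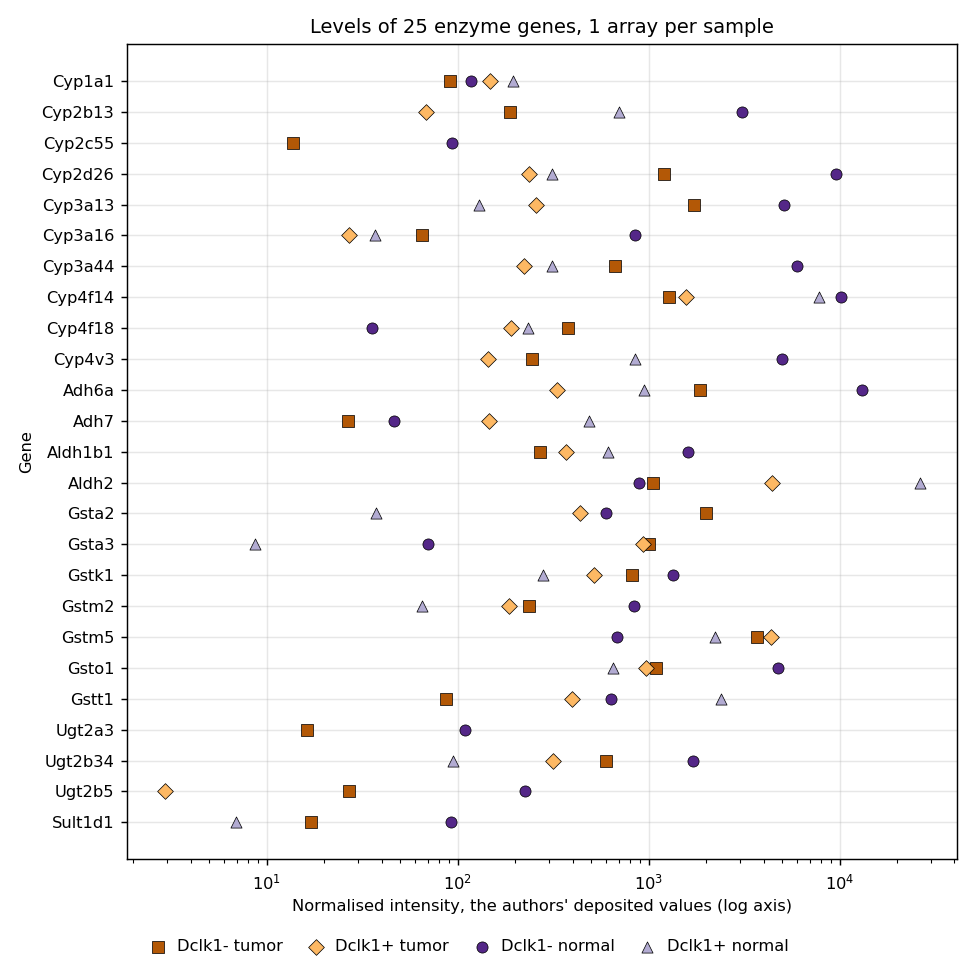
Levels of the named enzyme genes (authors' normalised intensity, log axis) on the 4 arrays, 1 point an array, with no point where the gene was not listed. Aldh2 was highest in Dclk1+ normal cells at 26297, while Cyp2d26, at 9606, and Cyp3a13, at 5141, were highest in Dclk1- normal cells.

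The alcohol and aldehyde dehydrogenases held members that differed in opposite directions between Dclk1+ and Dclk1- cells. Aldh2 encodes the mitochondrial enzyme that oxidises acetaldehyde, the product of ethanol. Its level was 889 in Dclk1- normal, 26297 in Dclk1+ normal, 1054 in Dclk1- tumor and 4432 in Dclk1+ tumor cells. Both Dclk1+ samples were above both Dclk1- samples, and the normal one was the higher. The difference between Dclk1+ and Dclk1- cells was 4.36 in normal epithelium and 1.73 in tumor on the log2 scale. Between tumor and normal the difference was -2.09 in Dclk1+ cells and 0.54 in Dclk1- cells.

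Adh7 encodes the class IV enzyme, which oxidises ethanol and retinol. Its level was 46.4 in Dclk1- normal, 486 in Dclk1+ normal, 26.6 in Dclk1- tumor and 145 in Dclk1+ tumor cells, so the Dclk1+ sample was the higher in each tissue. The log2 difference between Dclk1+ and Dclk1- cells was 2.06 in normal epithelium and 1.07 in tumor. The latter was 0.76 where each spot's local background was subtracted and 0.94 with arrays scaled to a common median.

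Adh6a encodes a class V alcohol dehydrogenase. Its level was 13047 in Dclk1- normal, 942 in Dclk1+ normal, 1869 in Dclk1- tumor and 331 in Dclk1+ tumor cells. The Dclk1- sample was above the Dclk1+ sample in both tissues, and the log2 difference of Dclk1+ from Dclk1- cells was -4.18 in normal epithelium and -2.62 in tumor. Tumor was below normal in Dclk1- cells (-2.61) and in Dclk1+ cells (-1.05, or -0.29 with local background subtracted). Adh5, which encodes the glutathione-dependent formaldehyde dehydrogenase, was nearly level, at 446, 702, 546 and 560.0 in the same order. Adh4 was listed only in Dclk1- normal cells, at 10.9.

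In the annotation used, Adh7, Adh1, Adh6a, Adh6b, Adh4 and Adh5 follow each other on chromosome 3, so the pair with opposite directions lies in 1 gene cluster. The 250 bases before the start of each of the pair are shown because the 2 genes differed in opposite directions between Dclk1+ and Dclk1- cells. They are from RefSeq (GRCm38.p6), on the strand of the gene, 5′ to 3′: Adh7 at chr3:138217523-138217772 and Adh6a at chr3:138313036-138313285, both on the plus strand. Capitals mark matches to the 5 motifs searched on both strands: the antioxidant response element core TGACNNNGC, the xenobiotic response element core GCGTG, the HNF1 motif GTTAAT, the HNF4 motif CAAAGT and the octamer ATGCAAAT. Adh6a held an antioxidant response element core 235 bases before the start, a motif found in 10.1% of all 27025 windows. Adh7 held none of the 5.
Adh7: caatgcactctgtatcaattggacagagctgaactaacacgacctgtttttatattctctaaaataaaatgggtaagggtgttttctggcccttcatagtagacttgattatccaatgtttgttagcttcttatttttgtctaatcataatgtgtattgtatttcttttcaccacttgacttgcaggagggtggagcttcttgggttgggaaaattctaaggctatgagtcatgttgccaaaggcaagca
Adh6a: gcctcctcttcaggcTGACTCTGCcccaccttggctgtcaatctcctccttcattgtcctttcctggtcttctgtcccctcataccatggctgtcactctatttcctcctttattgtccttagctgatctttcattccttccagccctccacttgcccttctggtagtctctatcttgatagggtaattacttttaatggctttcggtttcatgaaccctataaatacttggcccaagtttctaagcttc

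Among 20 Aldh genes, 16 were above background. Aldh2 was the only one at least 2-fold higher in Dclk1+ cells in either tissue. Aldh1b1, another mitochondrial enzyme that can oxidise acetaldehyde, had a level of 1604 in Dclk1- normal, 611 in Dclk1+ normal, 271 in Dclk1- tumor and 368 in Dclk1+ tumor cells. It was thus highest in the sample in which Aldh2 was lowest, with a log2 difference of -1.55 between Dclk1+ and Dclk1- normal cells and of 0.13 in tumor. In Dclk1- cells tumor was 2.13 below normal. Aldh3b1 (-1.20) and Aldh1a7 (-1.17) were also at least 2-fold lower in Dclk1+ normal cells. Aldh5a1, the succinate semialdehyde dehydrogenase, stayed within 2-fold in all 4 comparisons. Aldh1a1, which makes retinoic acid from retinal, was dim, at 18.2 in Dclk1- normal and 2.30, not above background, in Dclk1+ tumor cells, and was not listed elsewhere.

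The comparison of Dclk1+ with Dclk1- normal cells asks how the marked cells differ from the rest of the epithelium. On either array of the pair 91 enzyme genes exceeded background. The Dclk1+ sample was 2-fold or more below in 27 (29.7%) and above in 5 (5.49%) of them. Among all 12845 genes above background the shares were 5.92% lower and 5.66% higher. At 4-fold, 14 enzyme genes were lower and 2 higher, where all genes gave 2.16% and 1.61%. The median log2 difference was -0.16 for the enzymes and 0.01 for all genes. The 27 lower genes were spread over 8 of the 9 families, with 5 Cyp2, 3 Cyp3, 3 Cyp4, 1 Adh, 3 Aldh, 7 Gst, 3 Ugt and 2 Sult genes. The 5 higher genes were Aldh2, Adh7, Gstt1, Cyp4f18 and Gstm5.

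Markers of several epithelial cell types moved with this result. Of 12 enterocyte markers on the list, 10 were measured and all 10 were above background on each array. Their levels summed to 89992 in Dclk1- normal, 86435 in Dclk1+ normal, 23895 in Dclk1- tumor and 22239.8 in Dclk1+ tumor cells, and Fabp1 alone was 63956 of the Dclk1+ normal sum. The median log2 difference of the 10 was -3.79 in normal epithelium and -1.66 in tumor, with 7 and 6 genes at or past 2-fold below. Genes of the distal small intestine moved the same way: in each tissue the Dclk1+ sample was 2-fold or more below for 6 of 7. Their levels summed to 57281 in Dclk1- normal, 6043 in Dclk1+ normal, 22550 in Dclk1- tumor and 4683 in Dclk1+ tumor cells. In normal epithelium all 6 measured goblet cell markers (median -5.38), 6 of 8 enteroendocrine markers (median -3.98) and 4 of 5 Paneth cell markers (median -2.57) were also 2-fold or more below in Dclk1+ cells. Their levels summed to 180562, 37877 and 4707 in Dclk1- cells and to 7603, 6509 and 157 in Dclk1+ cells. Of 4 measured cell cycle genes, 2 were 4-fold or more below in Dclk1+ normal cells, Birc5 (-3.635) and Cdk1 (-2.30), with a median of -1.33. Mki67 (-0.36) and Top2a (-0.16) stayed within 2-fold. In tumor 1 of the 4 was 2-fold or more below, Birc5 at -1.14. Genes of the proximal small intestine and stem cell markers mostly did not move this way. Of 5 detected genes of the proximal small intestine, 1 was 2-fold or more below in Dclk1+ normal cells (median -0.40). In tumor 0 of 5 were (median -0.02). Of the stem cell markers, 0 of 5 detected were 2-fold or more below in normal epithelium and 0 of 3 in tumor. The part of any of these groups in the enzyme differences was not tested.

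In tumor the same comparison gave fewer and smaller differences. Of 82 enzyme genes above background, the Dclk1+ sample was 2-fold or more below in 9 (11%) and above in 3 (3.66%), against 2.13% and 1.76% of 12198 genes. At 4-fold, 4 were lower and 0 higher, against 0.287% and 0.434%. The median was -0.08 for the enzymes and 0.01 for all genes. With arrays scaled on their 75th percentile these became 0.05 and 0.13. The lower genes were Cyp3a13, Adh6a, Cyp2d26, Gsta2, Cyp3a44, Gsta4, Ugt2b34, Cyp2b13 and Cyp4f18. The higher genes were Aldh2, Gstt1 and Adh7.

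The pairs in normal epithelium and in tumor share no array. Of the 9 genes lower in tumor and the 27 lower in normal epithelium, 8 were the same (88.9% and 29.6% of each list). Among all genes, 150 were shared of 260 and 760 (57.7% and 19.7%). All 3 genes higher in tumor were also higher in normal epithelium. Of 32 enzyme genes at least 2-fold apart in either tissue, 31 (96.9%) differed more in normal epithelium. Among all genes 1447 of 1641 (88.2%) did. The exception was Gstt1, at 1.47 in tumor and 1.41 in normal epithelium.

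**Figure D2:**
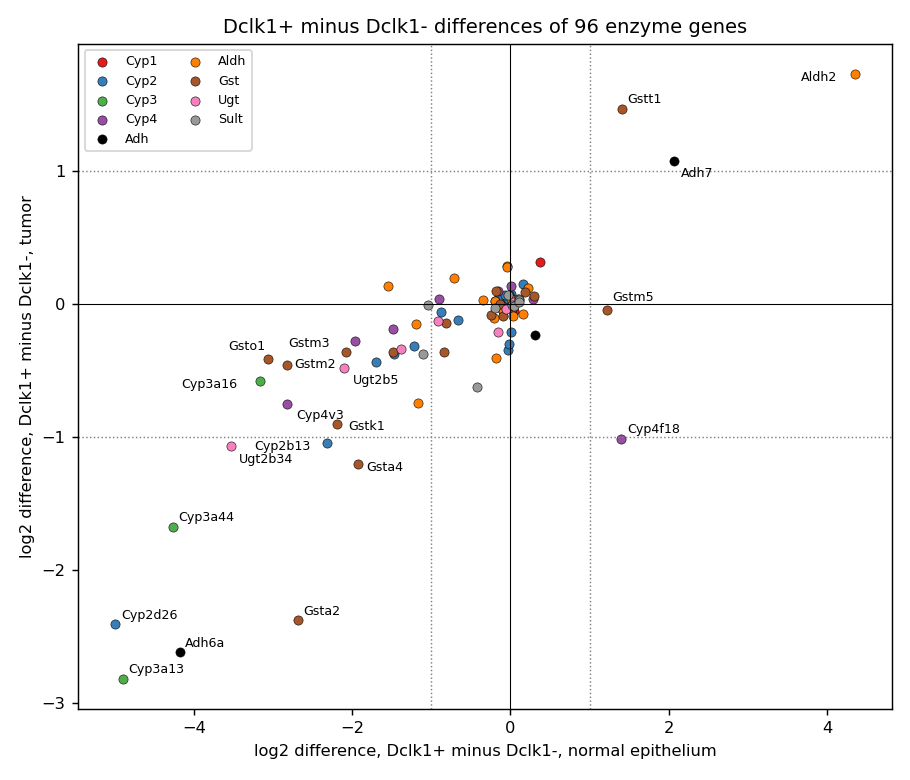
Log2 difference between Dclk1+ and Dclk1- cells in normal epithelium (x axis) and in tumor (y axis) for the 96 detected enzyme genes, coloured by family, with dotted lines at 2-fold. Most labelled genes lie at lower left, with Aldh2, Adh7 and Gstt1 at upper right and Cyp4f18 alone past 2-fold in opposite directions.

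The P450 genes of the drug-oxidising families gave the widest differences on the low side. Cyp2d26 belongs to the family that oxidises many amine drugs. Its level was 9606 in Dclk1- normal, 310.3 in Dclk1+ normal, 1206 in Dclk1- tumor and 237 in Dclk1+ tumor cells. Both Dclk1+ samples were below both Dclk1- samples, by -4.99 in normal epithelium and -2.41 in tumor on the log2 scale. The tumor value was -0.80 with local background subtracted, where the local background had been 83.8% of the spot in Dclk1- tumor cells.

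Cyp3a13 encodes a Cyp3a enzyme of the subfamily that oxidises a broad range of drugs and steroids. Its level was 5141 in Dclk1- normal, 129 in Dclk1+ normal, 1722 in Dclk1- tumor and 256 in Dclk1+ tumor cells. The Dclk1- samples were the higher in both tissues, with log2 differences of -4.89 and -2.82. Between tumor and normal Dclk1- cells the difference was -1.28, or -0.52 with local background subtracted. Cyp3a44 read 5967, 313, 670 and 222 in the same order of samples, with differences of -4.26 in normal epithelium and -1.67 in tumor. Cyp3a16 read 844, 36.7, 65.4 and 27.0, with -3.16 in normal epithelium and -0.58 in tumor. Genes of the Cyp3a, Cyp2b, Cyp2c, Cyp2d, Gsta, Gstm, Gstp and Ugt2b groups have close copies, so a probe may read more than 1 of them.

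The promoter windows of Cyp2d26, at chr15:82794246-82794495, and Cyp3a44, at chr5:145805875-145806124, both on the minus strand, are shown as examples that hold the HNF4 motif among the 4 genes over 16-fold lower in Dclk1+ normal cells. The other two, Cyp3a13 and Adh6a, did not hold it in their windows. Cyp2d26 held an HNF1 motif 90 and an HNF4 motif 58 bases before the start. Cyp3a44 held HNF4 motifs 95 and 6 bases before it. Of the 108 enzyme genes, 91 had a window, and 29 of these (31.9%) held the HNF4 motif, against 12.5% of all windows. Of the 26 with a window among the genes lower in Dclk1+ normal cells, 9 (34.6%) held it, a share close to that of all enzyme genes. These were Cyp2b13, Cyp2c40, Cyp2d26, Cyp3a16, Cyp3a44, Gstk1, Gstm3, Gstp1 and Sult2b1. Of the 4 with a window among the genes higher in Dclk1+ normal cells, 2 held it, Cyp4f18 and Gstm5. Whether the HNF4 motif goes with the direction of the difference was not tested. The HNF1 motif was in 9 of 91 (9.89%, against 6.52%) and the antioxidant core in 6 (6.59%, against 10.1%). The xenobiotic core was in 19 (20.9%, against 28.2%) and the octamer in 4 (4.4%, against 1.61%). These are matches of letters, and binding was not measured. Close copies, such as the Cyp2c genes, were each counted.
Cyp2d26: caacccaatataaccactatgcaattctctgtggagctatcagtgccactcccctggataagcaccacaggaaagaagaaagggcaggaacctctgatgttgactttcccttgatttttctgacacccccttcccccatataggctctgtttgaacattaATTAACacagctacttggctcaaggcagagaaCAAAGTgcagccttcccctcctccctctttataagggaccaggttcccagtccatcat
Cyp3a44: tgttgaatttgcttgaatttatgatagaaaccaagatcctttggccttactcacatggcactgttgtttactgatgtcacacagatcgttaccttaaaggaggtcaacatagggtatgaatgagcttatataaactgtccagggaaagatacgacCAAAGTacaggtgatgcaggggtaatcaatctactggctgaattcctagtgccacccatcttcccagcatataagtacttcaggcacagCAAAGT

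Cyp2b13 was read by 3 probes that disagreed. The brightest read 3068 in Dclk1- normal, 701 in Dclk1+ normal, 187 in Dclk1- tumor and 68.3 in Dclk1+ tumor cells, with Dclk1+ below Dclk1- by 2.32 in normal epithelium and 1.04 in tumor on the log2 scale. The 2 other probes gave 0.02 and -0.01 in normal epithelium. With the mean of the 3 probes the differences were -0.77 in normal epithelium and -0.27 in tumor. Cyp2c40 (-1.69) and Cyp2s1 (-1.47) were also lower in Dclk1+ normal cells. Cyp2c55 was above background in Dclk1- normal but not in Dclk1+ normal cells, where it was at least 2.28-fold lower. With local background subtracted the log2 difference was -0.63, below that bound. In the Cyp1 family, Cyp1a1, an oxidiser of aromatic hydrocarbons induced through the receptor Ahr, stayed within 2-fold, at 117 in Dclk1- normal, 194 in Dclk1+ normal, 91.1 in Dclk1- tumor and 148 in Dclk1+ tumor cells.

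The Cyp4 enzymes hydroxylate fatty acids and their signalling derivatives. Cyp4v3 read 4983 in Dclk1- normal, 853 in Dclk1+ normal, 245 in Dclk1- tumor and 144 in Dclk1+ tumor cells. Both normal samples were above both tumor samples, with tumor at -3.91 from normal in Dclk1- and -1.84 in Dclk1+ cells on the log2 scale. Within normal epithelium the Dclk1+ sample was at -2.83 from the Dclk1- sample. Cyp4f14, whose enzyme hydroxylates leukotriene B4, read 10165, 7780.4, 1279.5 and 1576 in the same order. Its differences were wider between tissues than between fractions, with a difference between tumor and normal of -2.79 in Dclk1- and -1.86 in Dclk1+ cells. The latter was -0.53 with local background subtracted, while that between Dclk1+ and Dclk1- normal cells went from -0.90 to -1.55. Cyp4b1 (-1.97) and Cyp4f13 (-1.48) were below in the Dclk1+ normal sample.

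Cyp4f18 was the exception to these patterns. It encodes the leukotriene B4 hydroxylase known from neutrophils. Its level was 35.5 in Dclk1- normal, 232 in Dclk1+ normal, 376 in Dclk1- tumor and 191 in Dclk1+ tumor cells. The Dclk1+ sample was the higher in normal epithelium (1.40) and the lower in tumor (-1.01), and neither reached 2-fold with local background subtracted (0.94 and -0.73). Some myeloid cell genes differed in the same directions. Of 7 on the list, 6 were measured and 5 were above background on each array, and their levels summed to 437 in Dclk1- normal, 1425 in Dclk1+ normal, 3248 in Dclk1- tumor and 1262 in Dclk1+ tumor cells. At 2-fold, 2 of the 5 were higher in Dclk1+ normal cells (C1qb at 1.32 and Il1b at 1.63) and 3 lower in Dclk1+ tumor cells (C1qa at -1.71, C1qb at -1.43 and Il1b at -1.83). Cd68 (0.15 in normal epithelium, -0.03 in tumor) and Csf1r (-0.12 and 0.06) were near 0. Itgam, a defining marker, was not listed on any array. The part of myeloid RNA in the Cyp4f18 signal was not tested.

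Most glutathione S-transferases that differed were lower in Dclk1+ normal cells. For 7 of 17 detected Gst genes (41.2%, all genes 5.92%) the signal in Dclk1+ normal cells was 2-fold or more below that in Dclk1- cells. It was above for 2 (11.8%, all genes 5.66%), Gstt1 and Gstm5. With local background subtracted neither was 2-fold higher, at 0.57 and -0.50. Gsto1, an omega-class enzyme that also reduces dehydroascorbate, read 4745 in Dclk1- normal, 649 in Dclk1+ normal, 1094 in Dclk1- tumor and 968 in Dclk1+ tumor cells. The Dclk1- normal sample stood above the other 3, with a log2 difference of -3.06 to Dclk1+ normal cells and of -0.41 in tumor. Gstm2, of the mu class, had the same shape, at 842, 64.7, 237 and 185, with differences of -2.82 and -0.46. With local background subtracted its tumor difference was -1.19. Its difference between tumor and normal Dclk1- cells then went from -1.40 to -0.84. Gstk1 (-2.19), Gstm3 (-2.07) and Gstp1 (-1.48) were also lower in Dclk1+ normal cells.

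The alpha class, which conjugates products of lipid peroxidation among other substrates, was higher in tumor in both fractions. Gsta3 read 69.7 in Dclk1- normal, 8.64 in Dclk1+ normal, 1009 in Dclk1- tumor and 935 in Dclk1+ tumor cells. Both tumor samples were above both normal samples, by 3.28 in Dclk1- and 3.76 in Dclk1+ cells on the log2 scale. Gsta2 read 597, 37.5, 1986 and 435 in the same order, with tumor higher by 1.96 in Dclk1- and 2.27 in Dclk1+ cells, although Dclk1+ tumor cells stayed below Dclk1- normal cells. Gsta4, whose enzyme conjugates 4-hydroxynonenal, was higher in tumor by 1.00 and 1.73. All 3 measured alpha genes were thus at or past 2-fold in both fractions, with Gsta4 in Dclk1- cells at the limit. On the authors' values that ratio was 1.99. Within a tissue the 3 were lower in Dclk1+ cells, with differences from -2.68 to -0.84 in normal epithelium and from -2.38 to -0.36 in tumor. Paneth cell genes also were higher in tumor: of 5 measured, 4 were at least 2-fold higher in Dclk1+ and 3 in Dclk1- cells. Their levels summed to 4707 in Dclk1- normal, 157 in Dclk1+ normal, 21338 in Dclk1- tumor and 14542 in Dclk1+ tumor cells. Of 4 measured hepatocyte genes, 1 was at least 2-fold higher in tumor in each fraction, and their levels summed to 330.5, 90.8, 528 and 743 in the same order. The part of either cell type's RNA in the alpha-class signal was not tested.

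The window before Gsta3, at chr1:21240335-21240584 on the plus strand, is shown as that of the enzyme gene with the widest gap between tumor and normal Dclk1+ cells. It held an HNF1 motif 149 and an antioxidant response element core 121 bases before the start.
Gsta3: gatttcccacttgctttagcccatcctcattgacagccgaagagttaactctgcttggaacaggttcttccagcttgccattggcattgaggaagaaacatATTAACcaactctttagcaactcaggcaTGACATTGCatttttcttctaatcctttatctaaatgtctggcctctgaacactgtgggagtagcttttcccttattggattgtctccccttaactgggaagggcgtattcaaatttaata

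Gstt1, of the theta class, had the reverse arrangement. Its level was 636 in Dclk1- normal, 2393 in Dclk1+ normal, 87.0 in Dclk1- tumor and 399 in Dclk1+ tumor cells. It was higher in Dclk1+ cells in both tissues, by 1.41 and 1.47, and lower in tumor in both fractions, at -2.02 in Dclk1+ and -2.08 in Dclk1- cells on the log2 scale. With local background subtracted the normal difference was 0.57 and that between tumor and normal Dclk1+ cells -0.75. Gstt2, of the same class, read 1249, 1439, 1045 and 1366 in the same order and stayed within 2-fold throughout.

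Gstm5 read 685 in Dclk1- normal, 2221 in Dclk1+ normal, 3691 in Dclk1- tumor and 4359.5 in Dclk1+ tumor cells. Its log2 difference was 1.22 between Dclk1+ and Dclk1- normal cells and 2.64 between tumor and normal Dclk1- cells. These signs turned to -0.50 and -2.68 with local background subtracted. The local background was 114.5% of the spot in Dclk1- tumor cells, where the median probe above background on all arrays had 70.5%, so these differences have no settled direction here. Between Dclk1+ and Dclk1- tumor cells the difference went from -0.04 to 4.65 with local background subtracted. Between tumor and normal Dclk1+ cells it kept its sign, at 1.38, or 2.47 with local background subtracted and 0.97 on the authors' values.

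**Figure D3:**
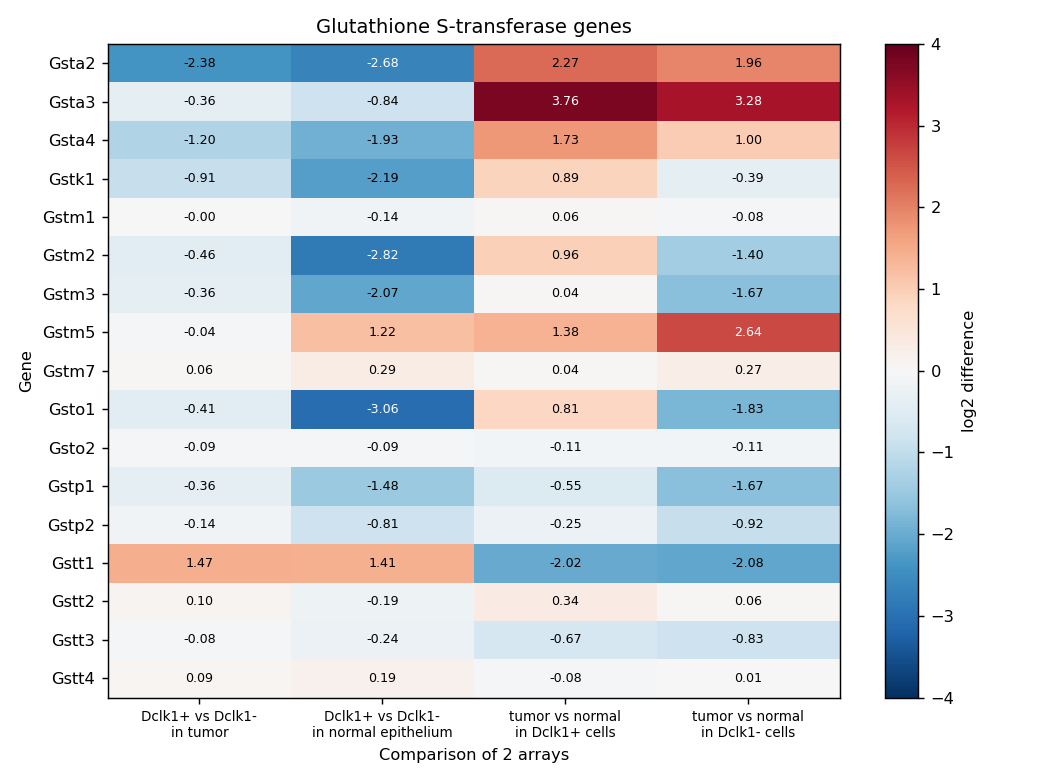
Log2 differences of the 17 detected Gst genes (rows) in the 4 comparisons (columns), with the value in each cell and the colour scale running from -4 to 4. The 3 Gsta genes are red in both comparisons of tumor with normal, Gstt1 is blue in both, and the sign of Gstm5 turned in the normal and Dclk1- comparisons with local background subtracted.

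The other conjugating enzymes were lower in Dclk1+ normal cells where they differed. Ugt2b34, a glucuronosyltransferase, read 1705 in Dclk1- normal, 94.4 in Dclk1+ normal, 599 in Dclk1- tumor and 316 in Dclk1+ tumor cells. Dclk1+ cells were the lower in both tissues, by 3.53 in normal epithelium and 1.07 in tumor on the log2 scale. The tumor value was -0.89 with local background subtracted and -0.92 on the authors' values. Between tissues the fractions went opposite ways, with tumor 1.30 above normal in Dclk1+ cells and 1.15 below it in Dclk1- cells. Ugt2b5 was at 227 in Dclk1- normal cells and below background in Dclk1+ normal cells, where it was at least 4.23-fold lower. With local background subtracted its log2 difference was -1.47, short of that bound. Ugt2a3 was likewise at least 2.51-fold lower in Dclk1+ normal cells, from a level of 109. With local background subtracted the log2 difference of Ugt2a3 was -0.97. Of the 11 sulfotransferase genes 9 were above background in the normal pair. Sult1d1 (-1.10) and Sult2b1 (-1.04) lay 2-fold or more below in Dclk1+ cells (22.2%, all genes 5.92%). With local background subtracted Sult1d1 was at -0.74. None of 7 in the tumor pair reached 2-fold.

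In the comparison of tumor with normal Dclk1+ cells, 81 enzyme genes were above background. Of these 5 (6.17%) were at least 2-fold higher in tumor and 7 (8.64%) lower, against 4.27% and 4.2% of 12869 genes. At 4-fold, 2 were higher and 3 lower, against 1.17% and 0.42%. The median was -0.05 for the enzymes and -0.03 for all genes. The higher genes were Gsta3, Gsta2, Gsta4, Gstm5 and Ugt2b34, and the lower genes Cyp2b13, Aldh2, Gstt1, Cyp4f14, Cyp4v3, Adh7 and Adh6a. Tuft cell markers moved with it, with 8 of 9 at least 2-fold lower in tumor, 4 of them at least 4-fold, a median of -1.77 and summed levels of 17896 in tumor and 76934 in normal cells. Their part in the lower enzyme genes was not tested. Higher genes made up 41.7% of the 12. They were 66.7% with local background subtracted and 27.8% on the authors' values. Cyp2b13 was counted as lower on its brightest probe. Its 2 other probes gave 0.0 and 0.03, and the mean of its probes gave -0.73.

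In Dclk1- cells, with 89 enzyme genes above background, the split was wider. There 22 (24.7%) were at least 2-fold lower in tumor and 5 (5.62%) higher, against 5.24% and 5.83% of 12341 genes. At 4-fold, 9 were lower and 3 higher, against 1.3% and 1.17%. The median was -0.14 for the enzymes and -0.02 for all genes. Cyp4v3 (-3.91), Cyp2b13 (-3.50), Cyp3a44 (-2.86), Cyp4f14 (-2.79), Cyp2d26 (-2.77), Cyp3a16 (-2.67) and Adh6a (-2.61) were at the low end. The Cyp2b13 value is that of its brightest probe, and its 2 other probes gave -0.23 and 0.03. The higher genes were Gsta3, Gstm5, Cyp4f18, Gsta2 and Gsta4. Of 10 enterocyte markers, 8 were at least 2-fold lower in tumor in Dclk1- cells and 2 in Dclk1+ cells, with medians of -1.995 and -0.13. In Dclk1- cells 7 of 8 enteroendocrine markers were at least 4-fold lower (median -3.73) and 4 of 6 goblet cell markers at least 2-fold lower (median -1.75), while 3 of 5 detected myeloid markers were at least 4-fold higher (median 2.22). Summed levels in tumor and normal Dclk1- cells were 649 and 37877 for the enteroendocrine, 42444 and 180562 for the goblet and 3248 and 437 for the myeloid list. The part of these cell types in the enzyme differences was not tested.

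**Figure D4:**
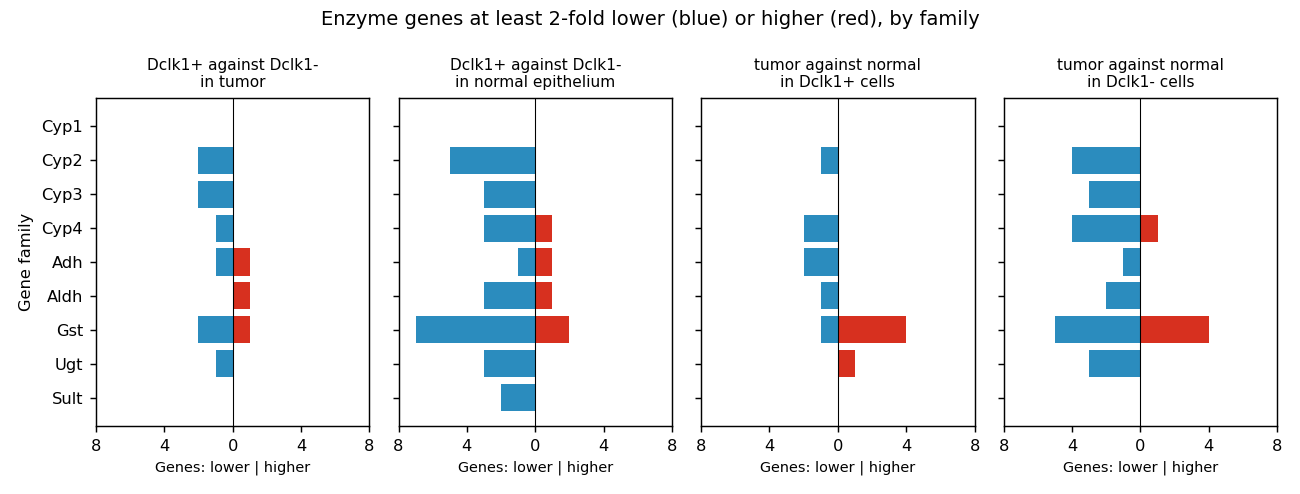
Number of detected enzyme genes (x axis) of each family (y axis) at least 2-fold lower (blue, left of 0) or higher (red, right of 0) in each of the 4 comparisons. The blue bars reach farthest for Dclk1+ against Dclk1- normal cells, with 27 genes in all, and for tumor against normal Dclk1- cells, with 22.

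Genes that act with these enzymes were followed from lists of partners. Of 12 measured genes for electron donors and cofactors, the Dclk1+ normal sample was 2-fold or more below for 3 and above for 0. These were Ugdh, which makes the glucuronic acid donor (-1.89), Gss, which makes glutathione (-1.70), and Cyb5b, a cytochrome b5 (-1.32). Por, which passes electrons to the P450 enzymes, was at -0.42 there and at -0.43 in tumor. None of 11 detected genes on this list differed 2-fold in tumor, where 2.13% of all genes were lower and 1.76% higher.

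Of 11 detected regulators, 1 (9.09%, all genes 5.92%) was 2-fold or more below in Dclk1+ normal cells and 0 above. It was Nr1i3, the xenobiotic receptor CAR, at 10.4 in Dclk1+ against 411 in Dclk1- normal cells (-2.64). In tumor it was at 31.1 in Dclk1+ and 68.2 in Dclk1- cells (-0.54), and none of the 11 reached 2-fold. Hnf4a, a transcription factor of gut and liver epithelium, was at 1351 in Dclk1- normal, 1021 in Dclk1+ normal, 312 in Dclk1- tumor and 336 in Dclk1+ tumor cells. It was lower in tumor than in normal, at -1.71 in Dclk1- and -1.12 in Dclk1+ cells. In Dclk1- cells 3 of 11 regulators were 2-fold or more lower in tumor (27.3%, all genes 5.24%): Hnf4a, Nr1i3 (-1.74) and Cdx2 (-1.33). Ahr (1.23) and Keap1 (1.37) were 2-fold or more higher there (18.2%, all genes 5.83%). In Dclk1+ cells 2 of 10 were lower in tumor (20.0%, all genes 4.2%), Hnf4a and Cdx2 (-1.15), and 0 higher. Nfe2l2, which encodes the antioxidant regulator Nrf2, read between 10.4 and 18.1 on the 4 arrays and did not pass 2-fold.

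Of 19 detected other oxidising and hydrolysing enzymes, 7 (36.8%, all genes 5.92%) lay 2-fold or more below in Dclk1+ normal cells and 0 above. They included the carboxylesterase Ces2a (-4.73), the monoamine oxidase Maoa (-3.64) and the xanthine dehydrogenase Xdh (-3.35). In tumor 3 of 17 (17.6%, all genes 2.13%) were lower: Ces2a (-2.09), the aldo-keto reductase Akr1b8 (-1.52) and Maoa (-1.27). The microsomal glutathione transferases went opposite ways. Mgst3 was at 4689 in Dclk1- normal, 32278 in Dclk1+ normal, 3051 in Dclk1- tumor and 12852 in Dclk1+ tumor cells, while Mgst1 was at 2582, 60.9, 2091 and 757. Their log2 differences between Dclk1+ and Dclk1- cells were 2.47 and -4.42 in normal epithelium and 1.66 and -1.68 in tumor.

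Among 9 efflux transporters, Abcc3 (1.57) and Slc22a18 (1.29) were higher and Abcc2, which exports conjugates across the apical membrane (-2.88), lower in Dclk1+ normal cells. The higher genes were 22.2% and the lower 11.1% of the list, against 5.66% and 5.92% of all genes. None of 8 detected in tumor reached 2-fold, with Abcc2 at -0.99. Of 15 detected retinoid and alcohol partners, Rdh7, a retinol dehydrogenase (-2.62), and Rbp4 (-1.19) were lower in Dclk1+ normal cells, and of 11 in tumor Rbp4 was (-1.07). The lower share of this list was 13.3% in normal epithelium and 9.09% in tumor, against 5.92% and 2.13% of all genes.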

How the data were processed

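The authors deposited, per the file headers, each array's scanner output of spot and local background intensity, and a table of normalised intensity. Each column of that table was a straight line of the spot intensity, with nearly the blank mean subtracted and the median listed probe set at 25. How the authors normalised was otherwise not given in the sources used here. Of 27456 spots an array, 23473 were gene probes. Probe symbols from the platform annotation were updated through RefSeq (GRCm38.p6), and the 3 probes with an unmatched symbol kept their own. The spot intensities were corrected with normexp (offset 50) and quantile-normalised over the 4 arrays with limma 3.58.1 in R 4.3.3. Log2 differences were then taken in Python 3.11.15. The deposited local background was not subtracted, since it followed the spot (correlation of logs across probes 0.921 to 0.979). Control spots and the 4 flagged spots were left out.

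With 1 array a group, no test was possible, and precision is limited by the number of arrays. Differences are counted among genes above background on either array of a pair. Named genes were Aldh2, Adh6a, the brightest gene of each family and those at least 4-fold apart, the latter capped by size in each direction of a comparison. Genes above background on only 1 array of a compared pair and at least 2-fold apart were named too. Other genes were named after their values were seen. "At least" folds set the brighter array against the lowest signal above background on the dimmer. The members, partner lists and markers were chosen with earlier results of these data known. Calculations were tested on simulated data. The alternatives were 2 other background corrections, an offset of 16, median and 75th percentile scaling, the authors' values, 3 SD above the blanks, no filter and the mean of a gene's probes.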

Additional observations from a re-analysis of the deposited data

Results flagged for a closer look

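Cyp4f18 differed between Dclk1+ and Dclk1- cells in opposite directions in the 2 tissues, at -1.01 in tumor and 1.40 in normal epithelium on the log2 scale. Ugt2b34 differed between tumor and normal in opposite directions in the 2 fractions, at 1.30 for Dclk1+ and -1.15 for Dclk1- samples. Neither opposition was tested, since each group has 1 array.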

How the results depend on the processing

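With plain subtraction of the blank mean, Dclk1+ against Dclk1- cells gave 6 higher and 26 lower enzyme genes in tumor and 9 and 43 in normal epithelium, with a median of -0.85 in the latter. Tumor against normal gave 13 and 17 in Dclk1+ cells and 9 and 47 in Dclk1- cells, with a median of -1.06 in the latter. On the authors' values the counts were 10 and 22, 10 and 44 (median -0.81), 10 and 26, and 8 and 56 (median -1.55) in the same order. Both leave out the offset, which compresses dim genes. All genes gave more differences there too: 16.0% were lower in Dclk1+ normal cells on the authors' values, against 48.4% of the enzymes, and 27.2% lower in tumor Dclk1+ cells, against 32.1%. The median of all genes in the 4 comparisons was then 0.35, 0.27, -0.40 and -0.50. With local background subtracted 2 enzyme genes were higher in Dclk1+ normal cells, and 8 were higher and 4 lower in tumor than in normal Dclk1+ cells. The other 2-fold counts moved by at most 1.5 times. Counts at 4-fold moved more: the lower genes went from 4 to 14 in tumor and from 14 to 31 in normal epithelium with plain subtraction, and from 3 to 0 between tumor and normal Dclk1+ cells with local background subtracted.

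Of 63 differences of at least 2-fold among the 25 named genes, 63 stayed past 2-fold with 75th percentile scaling, an offset of 16 and plain subtraction. The last 2 compress dim genes less, so they tend to widen differences and were unlikely to lower this count. The settings of 3 SD and no filter leave every difference unchanged, so they could not alter it. Of the same 63, 62 stayed with median scaling, 60 on the authors' values and 60 with the mean of a gene's probes. With local background subtracted 44 stayed. Only 2 reversed, both of Gstm5 with local background subtracted (-0.50 between Dclk1+ and Dclk1- normal cells, -2.68 between tumor and normal Dclk1- cells). The cause was not tested. No paired analysis was possible because each group is 1 array, and for the same reason none could be left out. Signal over background limits what dim genes show: 89 enzyme genes were above background at 3 SD, against 96.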
